A study of Mus musculus with 8 samples.

Results

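The 10 integrin chains described here are Itga1, Itga2, Itga4, Itga6, Itgae and Itgal, which encode α chains, and Itgb1, Itgb2, Itgb3 and Itgb7, which encode β chains. They were chosen by name, and each symbol was represented by its transcript with the largest mean read count. They are 10 of the 22878 gene symbols in the tables. All 10 were among the 13619 genes that passed the filter on low counts and were tested. RNA was sequenced from 4 progenitor populations sorted from C57BL/6 mouse bone marrow, with 2 libraries each.

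All 4 populations were sorted as live, lineage-negative, CD127-positive and Kit-positive cells. The common helper-like innate lymphoid progenitors (ChILP) lacked Flt3 and ST2 and carried integrin α4β7 on the surface. The PD-1+ progenitors, labelled as progenitors of innate lymphoid cells other than lymphoid tissue inducer (LTi) cells, met the same gate and were also PD-1-positive and CCR6-negative. The CCR6+ progenitors, labelled as LTi progenitors, met the ChILP gate and were PD-1-negative and CCR6-positive. The common lymphoid progenitors (CLP) carried Flt3 and Sca-1 and lacked integrin α4β7. ChILP and CLP were enriched by depleting lineage-positive cells, whereas PD-1+ and CCR6+ cells were first captured on a magnetic column through integrin α4β7. The population and the route of enrichment thus cannot be told apart in any comparison of PD-1+ or CCR6+ cells with CLP or ChILP. The labels give neither the ages nor the number of mice, and do not say whether both libraries of a population came from separate mice, so the p-values measure the spread between these libraries, which may be technical.

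Integrins are adhesion receptors made of 1 α and 1 β chain, and a cell's choice of chains sets which ligands it can bind. The α4 chain pairs with β7 to bind MAdCAM-1 on gut vessels, or with β1 to bind VCAM-1 and fibronectin, which hold progenitors in the marrow. The β7 chain also pairs with αE, a receptor for E-cadherin, while αL and β2 form LFA-1, which binds ICAMs and serves contacts between leukocytes. The α1 and α2 chains pair with β1 as collagen receptors, α6 makes laminin receptors, and β3 pairs with αIIb on platelets and megakaryocytes or with αv.

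The promoters of Itga4 and of its β partners are shown because these chains form the receptor used in the sort. RefSeq promoter windows of 300 bases, from 250 bases before to 50 bases after the start, were matched for 5 of the 10 chains (Itga1, Itga2, Itga4, Itgb1 and Itgb7). They are given 5′ to 3′ on the gene's own strand, in GRCm38.p6, and capitals mark motif matches. Itga4 lies on the plus strand at chr2:79255176-79255475, Itgb7 on the minus strand at chr15:102231886-102232185 and Itgb1 on the plus strand at chr8:128685404-128685703.
Itga4: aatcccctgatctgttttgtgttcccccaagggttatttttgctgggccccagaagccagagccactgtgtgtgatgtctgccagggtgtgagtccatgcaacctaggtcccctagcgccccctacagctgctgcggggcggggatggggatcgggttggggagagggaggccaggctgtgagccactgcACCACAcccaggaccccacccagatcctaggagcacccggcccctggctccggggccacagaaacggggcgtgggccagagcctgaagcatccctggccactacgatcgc
Itgb7: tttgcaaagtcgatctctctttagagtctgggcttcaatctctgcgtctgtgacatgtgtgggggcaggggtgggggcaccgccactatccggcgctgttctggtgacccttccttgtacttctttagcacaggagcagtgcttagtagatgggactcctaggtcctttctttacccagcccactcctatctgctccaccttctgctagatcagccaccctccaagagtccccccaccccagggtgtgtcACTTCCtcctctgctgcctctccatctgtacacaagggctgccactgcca
Itgb1: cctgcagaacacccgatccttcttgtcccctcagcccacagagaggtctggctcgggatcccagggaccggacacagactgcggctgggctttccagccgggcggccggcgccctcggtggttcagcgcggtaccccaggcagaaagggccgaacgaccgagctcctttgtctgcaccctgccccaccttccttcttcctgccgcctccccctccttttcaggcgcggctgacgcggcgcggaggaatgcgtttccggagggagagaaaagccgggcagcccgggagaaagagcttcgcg
Both strands were searched for a GATA motif (AGATAA), a RUNX motif (TGTGGT) and an ETS motif (GGAAGT). The Itga4 window held 1 RUNX match, read here as ACCACA, and the Itgb7 window held 1 ETS match, read here as ACTTCC. The Itgb1 window held none of these letters. RUNX matches stood in 16.8% of all 32851 promoter windows, ETS matches in 23.8% and GATA matches in 11.2%, so these matches are descriptions only. GC content was 64.3% in the Itga4 window, 56.3% in the Itgb7 window and 67.3% in the Itgb1 window.

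Libraries held 7685188 to 13997897 reads over genes. Flt3 followed the sort, at 92.1 and 157 RPKM (reads scaled to transcript length and library total) in CLP and at 5.10 to 10.4 RPKM elsewhere. Ly6a, which encodes Sca-1, on which CLP were selected, did not: it stood at 4.89 and 10.6 RPKM in ChILP, 39.6 and 62.4 RPKM in PD-1+ cells, 95.0 and 72.4 RPKM in CCR6+ cells, and 30.1 and 31.4 RPKM in CLP, and was called higher in CCR6+ cells than in CLP (log2 fold change 1.78, SE 0.43, adjusted p = 0.0363 by edgeR). Pdcd1, which encodes PD-1, stood at 181 and 36.3 RPKM in PD-1+ cells against 0 and 1.10 RPKM in CCR6+ cells. Ccr6 stood at 0 and 8.11 RPKM in PD-1+ cells against 84.2 and 23.6 RPKM in CCR6+ cells, so the second library of PD-1+ cells carried some Ccr6 and less Pdcd1 than the first. ChILP, whose stated gate named neither PD-1 nor CCR6, had 70.9 and 92.8 RPKM of Pdcd1 and 3.84 and 8.21 RPKM of Ccr6. The second PD-1+ library thus had less Pdcd1 than both ChILP libraries. Transcripts of mature lineages were present in the captured populations in spite of the lineage gate. The 7 mature neutrophil and monocyte markers in the tables (of 8 listed) all had reads in every library. They summed to 15591 to 33857 RPKM in PD-1+ and CCR6+ libraries against 6308 and 1376 RPKM in ChILP and 4868 and 1116 RPKM in CLP. The 5 erythroid markers (of 6 listed) summed to 27580 to 39676 RPKM in the captured libraries against 779 to 5899 RPKM in ChILP and CLP. Most of this was Hba-a1, with means of 23692 RPKM in PD-1+ and 28103 RPKM in CCR6+ cells. Epor did not follow the sum, with means of 45.7 RPKM in PD-1+ cells, 55.6 RPKM in CCR6+ cells, 70.7 RPKM in ChILP and 50.4 RPKM in CLP. The early myeloid sum ran opposite to the erythroid and mature myeloid sums, at 729 to 1704 RPKM in the captured libraries against 6857 to 9705 RPKM in the others. Each result below that separates PD-1+ and CCR6+ cells from CLP does so between libraries that these sums also separate. ChILP libraries lay on the CLP side of these sums. For Itgal the ChILP and CCR6+ ranges overlapped, with 31.7 RPKM in ChILP replicate 2 and 24.3 RPKM in CCR6+ replicate 1. Both CLP libraries still lay below all captured libraries for Itgal, and the part of mature lineage transcripts in its level was not tested.

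Levels of the chains spanned a wide range. Itgb7 and Itgb2 were the most abundant by RPKM, with means of 194 and 195 RPKM in PD-1+ cells, 205 and 197 RPKM in CCR6+ cells, 69.4 and 65.5 RPKM in ChILP, and 34.8 and 40.8 RPKM in CLP. Itgb1, Itgb3, Itgal and Itga4 lay lower, with group means between 8.20 RPKM (Itga4 in CLP) and 47.0 RPKM (Itgal in PD-1+ cells). Itga1, Itga2, Itga6 and Itgae stayed below 5 RPKM in every library. The share of the 4 β chains' summed RPKM that came from Itgb7 was 27.1% and 38.6% in ChILP, 44.2% and 43.2% in PD-1+ cells, 43.7% and 47.9% in CCR6+ cells, and 28.6% and 31.4% in CLP. The share of Itgb1 ran in the opposite direction, at 19.9% and 22.2% in ChILP, 8.61% and 6.20% in PD-1+ cells, 8.50% and 5.97% in CCR6+ cells, and 25.7% and 29.7% in CLP. Itgb1 itself had means of 32.6 RPKM in PD-1+ cells, 31.7 RPKM in CCR6+ cells and 32.0 RPKM in CLP. Its lower share there reflects the larger sum of the 4 chains. In CLP the shares of Itgb1 and Itgb7 were thus close to each other, and in every captured library the share of Itgb7 was several times that of Itgb1.

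**Figure D1:**
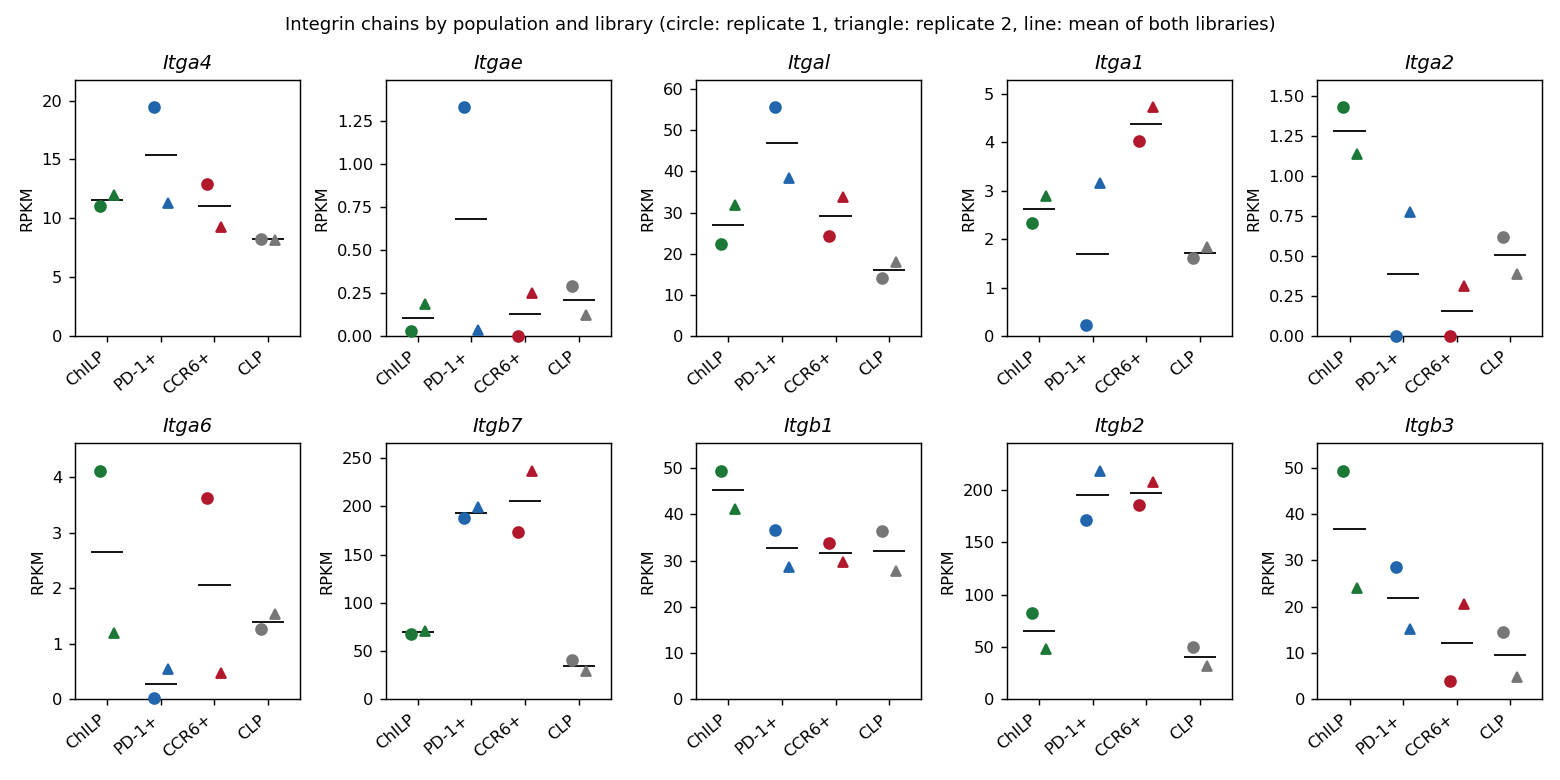
RPKM of each integrin chain in each library on a vertical axis that starts at 0, with the populations along the horizontal axis, a circle for replicate 1, a triangle for replicate 2 and a line at the mean of both. Itgb7 and Itgb2 stand above 170 RPKM in all PD-1+ and CCR6+ libraries, while Itga2, Itga6 and Itgae stay below 5 RPKM everywhere.

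Itgb7 (NM_013566), the β chain of the sorted receptor α4β7, was higher in all 6 libraries of α4β7-positive cells than in either CLP library. It stood at 67.5 and 71.3 RPKM in ChILP, 187 and 199.8 RPKM in PD-1+ cells, 174 and 237 RPKM in CCR6+ cells, and 40.4 and 29.2 RPKM in CLP. The ChILP libraries lay between CLP and the captured populations without touching either, and the PD-1+ values fell inside the CCR6+ range. Its log2 fold change against CLP was 2.74 (SE 0.27, edgeR quasi-likelihood F test, Benjamini-Hochberg adjusted p = 0.00596) in PD-1+ cells and 2.88 (SE 0.27, adjusted p = 0.00471) in CCR6+ cells, and both passed the threshold of 0.05. Without CLP replicate 2 the adjusted p was 0.0580 in PD-1+ cells, above the threshold, and 0.0332 in CCR6+ cells. In ChILP against CLP it was 1.04 (SE 0.25), with an unadjusted p of 0.00343 and an adjusted p of 0.292, and it did not pass. DESeq2 called this difference, with a log2 fold change of 1.01 and an adjusted p of 0.0087. Since the gate selected α4β7 protein, the higher Itgb7 of these populations against CLP is not independent of the sort. ChILP met the same gate at lower Itgb7 than the captured populations. The parts of the gate, the route of enrichment and mature cell transcripts in this difference were not tested. Between PD-1+ and CCR6+ cells, both of which met the α4β7 gate, the log2 fold change was -0.14 (SE 0.25, adjusted p = 0.964 by edgeR).

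Itga4 (NM_010576), the α chain of the same receptor, moved far less than Itgb7. Its RPKM was 11.04 and 12.01 in ChILP, 19.4 and 11.3 in PD-1+ cells, 12.9 and 9.27 in CCR6+ cells, and 8.27 and 8.14 in CLP. All 6 gated libraries lay above both CLP libraries, and the 3 gated populations overlapped. The log2 fold change was 1.16 (SE 0.27, adjusted p = 0.0418 by edgeR) in PD-1+ cells against CLP, which passed. Against CLP it was 0.77 in CCR6+ cells (SE 0.27, adjusted p = 0.107) and 0.54 in ChILP (SE 0.27, adjusted p = 0.923), and neither passed. DESeq2 called the CCR6+ difference, at 0.84. The call in PD-1+ cells was lost with limma on log2(RPKM + 1) (adjusted p = 0.121), with only the 4 libraries compared (adjusted p = 0.0913), and without CLP replicate 1, CLP replicate 2 or PD-1+ replicate 1. PD-1+ and CCR6+ cells differed by 0.39 (SE 0.26, adjusted p = 0.850).

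The ratio of Itgb7 to Itga4 in RPKM was 6.11 and 5.93 in ChILP, 9.65 and 17.6 in PD-1+ cells, 13.5 and 25.6 in CCR6+ cells, and 4.89 and 3.59 in CLP. Every captured library lay above every ChILP library, and both ChILP libraries lay above both CLP libraries. In all 8 libraries the β7 transcript thus exceeded that of its α4 partner. The ratio of Itgb7 to Itgb1, which compete for α4, was 1.37 and 1.74 in ChILP, 5.13 and 6.97 in PD-1+ cells, 5.14 and 8.01 in CCR6+ cells, and 1.11 and 1.06 in CLP. The PD-1+ and CCR6+ ranges overlapped. These ratios describe transcripts per length and give no number of receptors.

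Itgb1 (NM_010578), the common partner of α4, α1, α2 and α6, had group means of 31.7 to 45.2 RPKM. It stood at 49.4 and 41.0 RPKM in ChILP, 36.5 and 28.7 RPKM in PD-1+ cells, 33.8 and 29.6 RPKM in CCR6+ cells, and 36.4 and 27.6 RPKM in CLP. Both ChILP libraries were above all the others, and the CLP range enclosed the CCR6+ range and overlapped that of PD-1+ cells. ChILP exceeded CLP by a log2 fold change of 0.54 (SE 0.23, unadjusted p = 0.0461, adjusted p = 0.848 by edgeR). Against CLP the log2 fold change was 0.28 in PD-1+ cells (SE 0.23, adjusted p = 0.508) and 0.31 in CCR6+ cells (SE 0.23, adjusted p = 0.429). It was -0.03 between PD-1+ and CCR6+ cells (SE 0.23, adjusted p = 0.999). The signs in CCR6+ cells against CLP and in PD-1+ against CCR6+ cells changed under limma on the deposited RPKM. The edgeR scaling and the deposited RPKM differ in level here, since the median log2 fold change of all genes was -0.26 in PD-1+ cells and -0.36 in CCR6+ cells against CLP on log2(RPKM + 1), and -0.02 and -0.09 by edgeR.

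**Figure D2:**
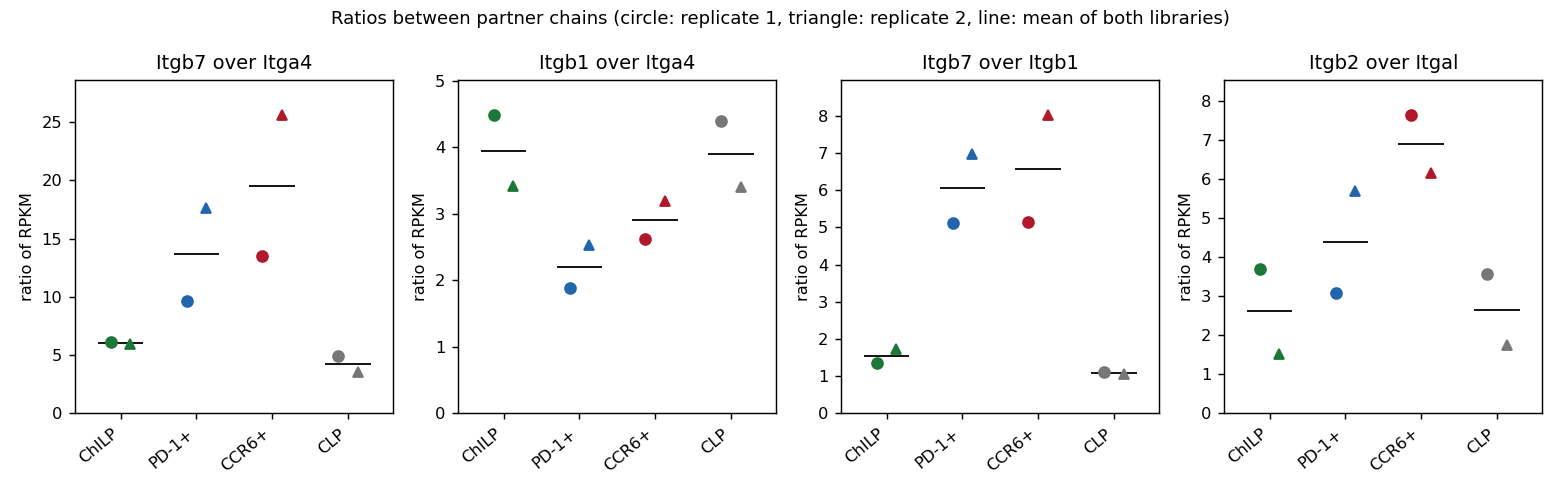
Ratio of RPKM between partner chains in each library, with the populations along the horizontal axis, a circle for replicate 1, a triangle for replicate 2 and a line at the mean of both libraries. The ratio of Itgb7 to Itgb1 lies between 5.13 and 8.01 in PD-1+ and CCR6+ libraries and between 1.06 and 1.74 in ChILP and CLP libraries.

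Itgae (NM_008399), the αE chain that joins β7 in the receptor for E-cadherin, was near the limit of detection. It had 2 and 11 reads in ChILP, 74 and 2 reads in PD-1+ cells, 0 and 14 reads in CCR6+ cells, and 12 and 7 reads in CLP. The 74 reads of 1 PD-1+ library gave 1.33 RPKM, and the other 7 libraries held 0 to 0.292 RPKM. Itgae has 2 transcripts in the tables that share reads. It passed in none of the 4 comparisons, with edgeR adjusted p-values of 0.682 to 1, and its low counts limit any statement about αE.

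Both chains of LFA-1 were called higher in the captured populations than in CLP. Itgal (NM_001253872), its α chain, stood at 22.3 and 31.7 RPKM in ChILP, 55.6 and 38.4 RPKM in PD-1+ cells, 24.3 and 33.8 RPKM in CCR6+ cells, and 14.1 and 18.0 RPKM in CLP. Both PD-1+ libraries were above all other libraries, the CCR6+ and ChILP ranges overlapped, and both CLP libraries were the lowest. The log2 fold change against CLP was 1.82 (SE 0.27, adjusted p = 0.0132 by edgeR) in PD-1+ cells and 1.20 (SE 0.26, adjusted p = 0.0275) in CCR6+ cells, and both passed. The PD-1+ call was lost without CLP replicate 2 (adjusted p = 0.0824). The CCR6+ call was lost with limma (adjusted p = 0.0739 on log2(RPKM + 1)), without any 1 of the 4 libraries compared and without the second library of both captured populations. ChILP exceeded CLP by 0.81 (SE 0.26, unadjusted p = 0.0140, adjusted p = 0.575), and PD-1+ exceeded CCR6+ cells by 0.62 (SE 0.26, unadjusted p = 0.0429, adjusted p = 0.838), and neither passed. Itgal has 4 transcripts in the tables that share reads.

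Itgb2 (NM_008404), the β chain of LFA-1 and of the myeloid receptors that contain αM, αX or αD, separated the captured libraries from the others. Population and route of enrichment cannot be told apart in this contrast. Itgb2 had 82.6 and 48.4 RPKM in ChILP, 172 and 219 RPKM in PD-1+ cells, 186 and 208 RPKM in CCR6+ cells, and 50.2 and 31.4 RPKM in CLP. All 4 captured libraries lay above all 4 others, ChILP and CLP overlapped, and the CCR6+ values fell inside the PD-1+ range. Against CLP, Itgb2 had a log2 fold change of 2.52 in PD-1+ cells (SE 0.36, adjusted p = 0.0126 by edgeR) and 2.59 in CCR6+ cells (SE 0.36, adjusted p = 0.00876). The PD-1+ call was lost without CLP replicate 2 (adjusted p = 0.0824) and without the second library of both captured populations (adjusted p = 0.0519), and the CCR6+ call without CLP replicate 2 (adjusted p = 0.0581). ChILP against CLP gave 0.72 (SE 0.35, adjusted p = 0.911), and PD-1+ against CCR6+ gave -0.06 (SE 0.34, adjusted p = 0.995).

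Itgam, the αM partner of Itgb2 and a marker of myeloid cells, was 5.82 and 4.72 RPKM in ChILP, 15.8 and 31.6 RPKM in PD-1+ cells, 21.7 and 35.3 RPKM in CCR6+ cells, and 6.11 and 4.44 RPKM in CLP. It separated the libraries in the same way as Itgb2, with Pearson r = 0.94 between both genes on log2(RPKM + 1) over the 8 libraries, which fall into the pair of enrichment routes. Itgb2 was likewise related to Itgb7 with r = 0.97, and Itgb7 to Itgam with r = 0.92. The mature myeloid markers given above, of which Itgam is 1, were higher in the captured libraries along with Itgb2, and their part in its level was not tested. In these bulk samples fewer cells of a type and less RNA per cell cannot be told apart. The ratio of Itgb2 to Itgal was 3.70 and 1.53 in ChILP, 3.09 and 5.69 in PD-1+ cells, 7.64 and 6.15 in CCR6+ cells, and 3.56 and 1.75 in CLP, so the CCR6+ ratios stood above those of every other population.

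**Figure D3:**
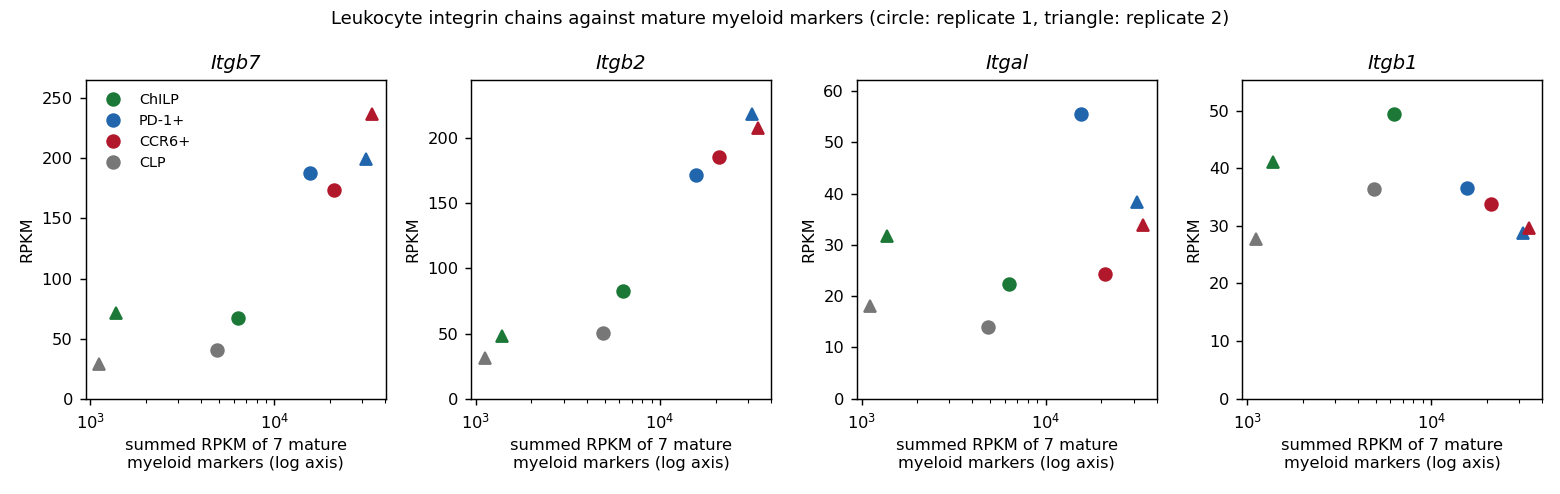
RPKM of Itgb7, Itgb2, Itgal and Itgb1 (vertical axes, from 0) against the summed RPKM of 7 mature myeloid markers (horizontal log axis), with 1 point per library, a circle for replicate 1, a triangle for replicate 2 and a colour for each population. PD-1+ and CCR6+ libraries lie at sums of 15591 to 33857 RPKM with the highest Itgb7 and Itgb2, while Itgb1 of the same libraries lies between 28.7 and 36.5 RPKM, within or next to the CLP values of 36.4 and 27.6 RPKM.

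The summed markers of other lymphoid cells and of mast cells and basophils were also higher in the captured libraries than in CLP, though not every marker was. The 4 T cell markers summed to 15.7 to 42.7 RPKM in the captured libraries. They summed to 4.30 and 3.64 RPKM in ChILP and 2.63 and 4.23 RPKM in CLP. Cd3e, Cd3d and Cd8a were at 0 in ChILP replicate 2, Cd8a in PD-1+ replicate 1 and Cd3e in CLP replicate 2. The 4 B and plasma cell markers summed to 146 to 198 RPKM in the captured libraries. They summed to 21.0 and 21.6 RPKM in ChILP and 91.4 and 104 RPKM in CLP, with Ms4a1 at 0 in ChILP replicate 2 and CLP replicate 2. Among them Sdc1 went the other way, with means of 26.3 RPKM in PD-1+ and 15.5 RPKM in CCR6+ cells against 37.8 RPKM in CLP. The 6 natural killer cell markers summed to 20.3 to 38.3 RPKM in the captured libraries. They summed to 8.50 and 13.8 RPKM in ChILP and 12.3 and 8.09 RPKM in CLP. Among them Prf1 was at 0 in both ChILP libraries, Gzmb in ChILP replicate 2 and Eomes in CLP replicate 2. The 6 mast cell and basophil markers summed to 378 to 870 RPKM in the captured libraries. They summed to 405 and 213 RPKM in ChILP and 276 and 243 RPKM in CLP. Cma1 was at 0 in ChILP replicate 2, PD-1+ replicate 2, CCR6+ replicate 1 and CLP replicate 2. Gata2 averaged 19.3 RPKM in PD-1+ and 25.7 RPKM in CCR6+ cells against 25.9 RPKM in CLP. Ms4a2 had a lower mean than CLP in PD-1+ cells (4.44 against 4.66 RPKM), and Cma1 in CCR6+ cells (0.414 against 1.87 RPKM). The part of such lymphoid cells, mast cells and basophils in the levels of Itgb7 and Itgal was not tested.

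The collagen and laminin receptor chains were low and varied between libraries. Itga1 (NM_001033228), a collagen receptor chain, had 2.34 and 2.89 RPKM in ChILP, 0.230 and 3.16 RPKM in PD-1+ cells, 4.02 and 4.73 RPKM in CCR6+ cells, and 1.61 and 1.84 RPKM in CLP. The PD-1+ libraries differed most, with 20 and 307 reads, and both CCR6+ libraries were above every other library. Its log2 fold change was -1.37 in PD-1+ against CCR6+ cells (SE 0.94, adjusted p = 0.850 by edgeR), and became -4.37 (adjusted p = 0.0453) without PD-1+ replicate 2, which leaves a single PD-1+ library whose spread is taken from the remaining populations. In CCR6+ cells against CLP it was 1.68 (SE 0.95, adjusted p = 0.297), a difference called with only the 4 libraries compared (1.73, adjusted p = 0.0254), and in ChILP against CLP 0.66 (SE 0.93, adjusted p = 1). PD-1+ against CLP gave 0.31 (SE 0.93, adjusted p = 0.881), a value whose sign was negative under limma, under a replicate block and without PD-1+ replicate 2, where it was -2.70 and called lower (adjusted p = 0.0432).

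Itga2 (NM_008396), the other collagen receptor α chain measured here, had 1.43 and 1.14 RPKM in ChILP, 0 and 0.773 RPKM in PD-1+ cells, 0 and 0.309 RPKM in CCR6+ cells, and 0.620 and 0.389 RPKM in CLP. The libraries without a read allow up to 0.0489 RPKM in PD-1+ replicate 1 and up to 0.0665 RPKM in CCR6+ replicate 1, taking 3 reads as the limit that a count of 0 allows. Both ChILP libraries were above all the others. The log2 fold change in ChILP against CLP was 1.38 (SE 2.13, adjusted p = 1 by edgeR), and the other comparisons had adjusted p-values of 0.736 to 0.992.

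Itga6 (NM_008397), the laminin receptor chain of stem and progenitor cells, had 4.11 and 1.20 RPKM in ChILP, 0.0164 and 0.542 RPKM in PD-1+ cells, 3.63 and 0.473 RPKM in CCR6+ cells, and 1.27 and 1.53 RPKM in CLP. A single read accounts for the lower PD-1+ value. Replicates of ChILP and of CCR6+ cells differed more than the group means did. PD-1+ against CCR6+ gave a log2 fold change of -2.87 (SE 1.48, unadjusted p = 0.0881, adjusted p = 0.850 by edgeR), and PD-1+ against CLP gave -1.98 (SE 1.43, adjusted p = 0.453). Against CLP the value was 0.99 in ChILP (SE 1.37, adjusted p = 1) and 0.89 in CCR6+ cells (SE 1.37, adjusted p = 0.728).

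Itgb3 (NM_016780), the β chain of the platelet fibrinogen receptor and of the αv vitronectin receptor, had 49.4 and 24.0 RPKM in ChILP, 28.6 and 15.3 RPKM in PD-1+ cells, 3.92 and 20.6 RPKM in CCR6+ cells, and 14.5 and 4.80 RPKM in CLP. Both ChILP libraries and both PD-1+ libraries were above both CLP libraries, and the CCR6+ values spanned the CLP range. The log2 fold change was 1.95 in ChILP against CLP (SE 0.82, unadjusted p = 0.0442, adjusted p = 0.848 by edgeR), 1.40 in PD-1+ cells against CLP (SE 0.80, adjusted p = 0.334), 0.64 in CCR6+ cells against CLP (SE 0.79, adjusted p = 0.655) and 0.76 in PD-1+ against CCR6+ cells (SE 0.79, adjusted p = 0.914). None passed.

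The α partners of β3 behaved differently from each other. Itga2b, the αIIb chain of platelets and megakaryocytes, had 128 and 37.8 RPKM in ChILP, 15.5 and 11.4 RPKM in PD-1+ cells, 18.9 and 23.9 RPKM in CCR6+ cells, and 38.0 and 18.6 RPKM in CLP. Itgav was far lower, at 0.634 to 2.77 RPKM in all 8 libraries. The ratio of Itgb3 to Itga2b was 0.387 and 0.635 in ChILP, 1.85 and 1.35 in PD-1+ cells, 0.208 and 0.861 in CCR6+ cells, and 0.381 and 0.259 in CLP. The PD-1+ libraries were the only 2 of the 8 in which Itgb3 exceeded Itga2b. The 8 megakaryocyte and platelet markers, which include Itga2b, all had reads in every library and summed to 1889 and 662 RPKM in ChILP, 227 and 159 RPKM in PD-1+ cells, 205 and 478 RPKM in CCR6+ cells, and 690 and 465 RPKM in CLP. PD-1+ libraries thus had more Itgb3 than CLP libraries and a lower marker sum, while within each of the 4 populations the library with the higher sum also had the higher Itgb3. The part of megakaryocyte transcripts in Itgb3 was not tested.

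**Figure D4:**
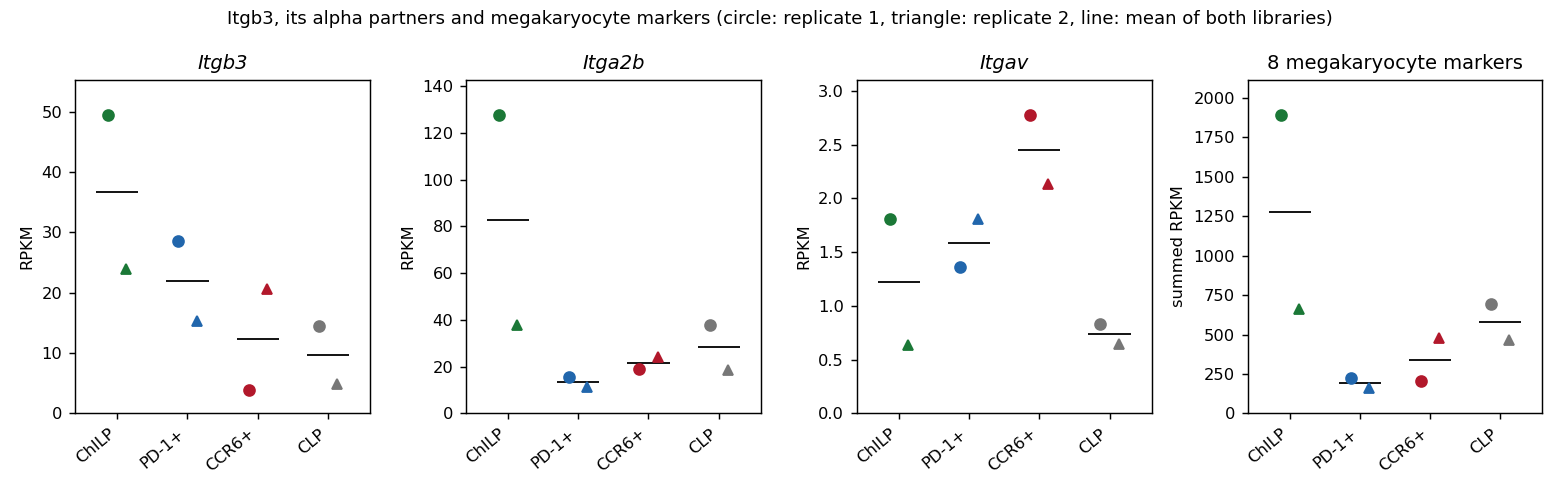
RPKM of Itgb3 and of its partners Itga2b and Itgav, and the summed RPKM of 8 megakaryocyte markers, in each library, with the populations along the horizontal axis, a circle for replicate 1, a triangle for replicate 2 and a line at the mean of both. ChILP replicate 1 stands highest in Itgb3 at 49.4 RPKM, in Itga2b at 128 RPKM and in the marker sum at 1889 RPKM, and PD-1+ libraries pair 28.6 and 15.3 RPKM of Itgb3 with sums of 227 and 159 RPKM.

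Over all 10 chains, the number called depended on the comparison. ChILP against CLP, the transition that the study's design names first, had 0 of 10 chains called at an adjusted p under 0.05, where 3 of 13619 genes, or 0.0220%, were called, 0.00734% higher and 0.0147% lower. At an unadjusted p under 0.05, 792 genes passed, or 5.82%, and 4 chains were higher (Itgal, Itgb1, Itgb3 and Itgb7) and 0 lower, where 2.79% of all genes were higher and 3.03% lower. Both ChILP libraries were above both CLP libraries for 7 chains (Itga1, Itga2, Itga4, Itgal, Itgb1, Itgb3 and Itgb7), as they were for 17.0% of genes, and below them for 0, as they were for 18.6% of genes. The chains' median log2 fold change was 0.77, against 0.05 for all genes tested. It ranged from 0.60 to 0.88 over the alternatives. DESeq2 called 1 chain, Itgb7, and 263 genes.

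PD-1+ against CCR6+ cells, which the design compares to find genes of each lineage, had 0 of 10 chains called, and 0.00% of all genes. At an unadjusted p under 0.05, 801 genes passed, or 5.88%, and 1 chain, Itgal, was higher, as were 4.08% of genes, and 0 lower, as were 1.81%. DESeq2 called 131 genes and 0 chains. Libraries did not overlap for Itgal, which was higher in PD-1+ cells, as were 19.0% of genes, and for Itga1, which was lower, as were 14.2% of genes. The median log2 fold change was 0.18, against 0.01 for all genes, and had a negative sign under at least 1 alternative, with a range of -0.10 to 0.19.

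PD-1+ cells against CLP had 4 of 10 chains called higher (Itga4, Itgal, Itgb2 and Itgb7) and 0 called lower, where 7.31% of all genes were called, 4.47% higher and 2.83% lower. At an unadjusted p under 0.05 the same 4 chains were higher and 0 lower, where 24.2% of genes passed, 12.8% higher and 11.4% lower. Both PD-1+ libraries were above both CLP libraries for 5 chains (Itga4, Itgal, Itgb2, Itgb3 and Itgb7), as for 18.6% of genes, and below them for 1 (Itga6), as for 38.7%. On counts scaled by TMM the same 5 chains were above CLP and 1 was below, and the shares of genes were 26.1% and 29.0%. The count was 0 without CLP replicate 2, where only 8 genes were called over all genes, and 3 without the second library of both captured populations. CCR6+ cells against CLP had 3 of 10 called higher (Itgal, Itgb2 and Itgb7) and 0 lower, where 11.4% of all genes were called, 6.59% higher and 4.79% lower. At an unadjusted p under 0.05 these chains and Itga4 were higher and 0 lower, where 27.5% of genes passed, 13.8% higher and 13.7% lower. Both CCR6+ libraries were above both CLP libraries for 5 chains (Itga1, Itga4, Itgal, Itgb2 and Itgb7), as for 19.8% of genes, and below them for 1 (Itga2), as for 45.7%. On counts scaled by TMM, as in the test, the same 5 chains were above CLP, as were 28.0% of genes, and 0 were below, as were 33.4%. Without CLP replicate 2, Itgal and Itgb2 lost their calls in CCR6+ cells and Itgb7 kept its call. Without the second library of both captured populations, Itgal lost its call and another chain gained one. The median log2 fold change of the chains was 1.28 in PD-1+ cells against CLP, beside -0.02 for all genes, and 0.83 in CCR6+ cells against CLP, beside -0.09. Over the alternatives it ranged from 0.79 to 1.63 and from 0.38 to 0.99, and both lowest values came from limma on log2(RPKM + 1), where the median of all genes was also lower. Both comparisons use the same CLP libraries. Of the chains called higher, Itga4 and Itgb7 encode the receptor whose protein the gate selected, and the others were Itgal and Itgb2. Itgb2 is shared by LFA-1 and the receptors with αM, αX or αD. Over the 8 libraries its Pearson r on log2(RPKM + 1) was 0.94 with Itgam and 0.67 with Itgal.

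**Figure D5:**
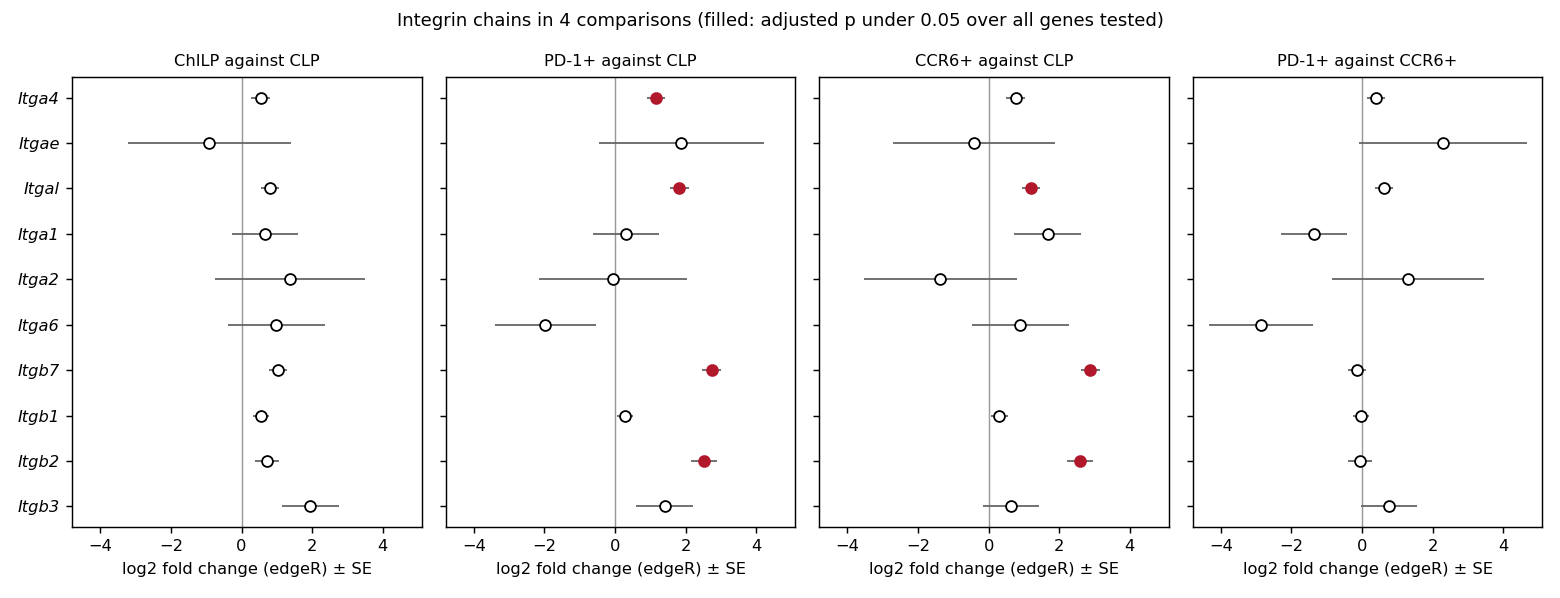
Log2 fold change of each integrin chain from the edgeR fit in each of the 4 comparisons, with bars of 1 SE and filled points for an adjusted p under 0.05. Itgb7 and Itgb2 lie between 2.52 and 2.88 against CLP in PD-1+ and CCR6+ cells and close to 0 between PD-1+ and CCR6+ cells, while the bars of Itga2 and Itgae span more than 2 units on each side.

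Of 16 other integrin chains listed, 12 were tested. Itgam was called higher than in CLP in PD-1+ cells (log2 fold change 2.45, SE 0.43, adjusted p = 0.0202 by edgeR) and in CCR6+ cells (2.75, SE 0.44, adjusted p = 0.0113). No other was called in any comparison by the main edgeR fit. Without a filter on low counts, edgeR called 2 of these chains higher in PD-1+ cells against CLP. DESeq2 called 2 of them higher in PD-1+ cells against CLP, and 3 higher and 1 lower in CCR6+ cells against CLP. Without CLP replicate 2, 0 of these chains were called in either comparison, and in PD-1+ cells 0 were called with only the 4 libraries compared or without the second library of both captured populations. Their median log2 fold change was 0.25 in ChILP against CLP, -0.56 in PD-1+ against CCR6+ cells, 0.77 in PD-1+ cells against CLP and 1.48 in CCR6+ cells against CLP. It was 0.10 in PD-1+ cells against CLP without CLP replicate 2 or PD-1+ replicate 2, 0.57 in CCR6+ cells against CLP without CCR6+ replicate 2, and 0.04 in PD-1+ against CCR6+ cells without CCR6+ replicate 2. Leaving out 1 library gave 0 to 0.73 in ChILP against CLP. Itgad, the αD partner of β2, averaged 4.19 ± 1.64 RPKM in PD-1+ cells and 0.869 ± 0.205 RPKM in CLP (SD, n = 2 each). Itga5, the α5 chain of the fibronectin receptor, stayed between 6.86 and 11.8 RPKM in all libraries, and Itga7 and Itgb6 were at 0 in all 8.

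Integrin ligands were also measured in these cells, with 18 of 20 listed genes tested. By edgeR 0 were called in ChILP against CLP and in PD-1+ against CCR6+ cells. At an unadjusted p under 0.05, 2 were higher and 1 lower in ChILP and 0 passed between PD-1+ and CCR6+ cells, and DESeq2 called 1 and 0. The median log2 fold change of the ligands was not stable when single libraries were left out. It was 0.53 in ChILP against CLP, with -0.11 without ChILP replicate 1 and 1.71 without CLP replicate 1, and -0.18 in PD-1+ against CCR6+ cells, with -0.90 without PD-1+ replicate 2 and 0.67 without CCR6+ replicate 2. In PD-1+ cells against CLP it was 0.53, with -0.66 without PD-1+ replicate 2 and 1.88 without CLP replicate 1. In CCR6+ cells against CLP it was 0.53, with -0.23 without CCR6+ replicate 2 and 1.89 without CLP replicate 1. Against CLP, Icam4, an ICAM of red cells, and Fn1, fibronectin, were called higher in PD-1+ cells, with log2 fold changes of 1.49 (SE 0.19, adjusted p = 0.0107 by edgeR) and 4.37 (SE 0.91, adjusted p = 0.0316). The same genes and Vcam1, the ligand of α4β1, were called higher in CCR6+ cells against CLP, at 1.84 (SE 0.20), 4.84 (SE 0.93) and 2.57 (SE 0.59), with adjusted p-values of 0.00578, 0.0194 and 0.0317. Without CLP replicate 2, 0 ligands were called in PD-1+ cells and 1 in CCR6+ cells. Leaving out either library of the captured population left 1 call in each comparison. Fn1 stood at 40.8 and 82.9 RPKM in PD-1+ cells, 78.8 and 88.7 RPKM in CCR6+ cells, and 6.24 and 0.888 RPKM in CLP. Vcam1 stood at 43.7 and 41.4 RPKM in PD-1+ cells, 81.7 and 51.0 RPKM in CCR6+ cells, and 19.3 and 8.43 RPKM in CLP. The captured libraries were also those with the higher erythroid and mature myeloid sums, whose part in these ligands was not tested.

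Cytoplasmic adaptors and regulators of integrins were tested for 30 of 32 listed genes, with 0 called by edgeR in ChILP against CLP and in PD-1+ against CCR6+ cells. At an unadjusted p under 0.05, 2 were higher and 3 lower in ChILP and 1 was higher in PD-1+ cells, and DESeq2 called 1 and 0. In PD-1+ cells against CLP 5 were called higher and 1 lower, and in CCR6+ cells against CLP 6 were called higher and 1 lower, beside 4.47% and 6.59% of all genes called higher. Without CLP replicate 2, 0 were called in either comparison. In PD-1+ cells against CLP 1 was called with only the 4 libraries compared, without PD-1+ replicate 2 or without the second library of both captured populations, and 2 with the replicate block or without CLP replicate 1. In CCR6+ cells against CLP 2 were called without CCR6+ replicate 2, and 4 without CCR6+ replicate 1, without CLP replicate 1 or without the second library of both captured populations. The median log2 fold change of the adaptors was 0.52 in PD-1+ cells against CLP (0.32 to 0.61 over the alternatives) and 0.57 in CCR6+ cells against CLP (0.31 to 0.74). It was -0.02 in ChILP against CLP and -0.09 in PD-1+ against CCR6+ cells, and both changed sign among the alternatives (-0.12 to 0.16 and -0.18 to 0.09). Skap1, an adaptor that couples antigen receptors to LFA-1, had the highest positive log2 fold change of these genes in each comparison with CLP. It had 7.35 and 15.0 RPKM in ChILP, 26.8 and 8.07 RPKM in PD-1+ cells, 4.31 and 5.39 RPKM in CCR6+ cells, and 0.341 and 0.406 RPKM in CLP. Both libraries of each gated population were above both CLP libraries, and those of PD-1+ cells were above those of CCR6+ cells. Its log2 fold change against CLP was 5.76 in PD-1+ cells (SE 0.72, adjusted p = 0.0107 by edgeR) and 4.02 in CCR6+ cells (SE 0.68, adjusted p = 0.0134). In ChILP against CLP it was 4.94 (SE 0.70, adjusted p = 0.0812), and in PD-1+ against CCR6+ cells 1.75 (SE 0.59, adjusted p = 0.793). Fyb, the partner of Skap1, was called higher than in CLP in PD-1+ cells (1.46, SE 0.25, adjusted p = 0.0193) and in CCR6+ cells (1.65, SE 0.25, adjusted p = 0.0105). Flna, Rap1a and Filip1l made up the rest of the higher calls against CLP, with Cytip added in CCR6+ cells. Parvg, a focal adhesion protein of leukocytes, was called lower than in CLP, with log2 fold changes of -0.80 (SE 0.19, adjusted p = 0.0490) in PD-1+ cells and -1.08 (SE 0.20, adjusted p = 0.0166) in CCR6+ cells. Tln1, the talin that activates integrins, and Fermt3, kindlin-3, were called in none of the 4 comparisons, with group means of 50.3 to 62.6 RPKM for Tln1 and 177 to 255 RPKM for Fermt3.

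The genes most like a chain were ranked by Pearson r of log2(RPKM + 1) over the 8 libraries, among 7927 tested genes with a mean of at least 5 RPKM, and are given as description. The points share their libraries and the enrichment routes. Cd3g (r = 0.997), Fcer1g (0.99) and Inpp4a (0.99) were nearest to Itgb7, and Trim58 (0.995), Cdkn2d (0.99, listed at 2 loci) and Lass6 (0.99) to Itgb2. For Itgal these were S100a10 (0.98), Selplg (0.97) and Tmem154 (0.95), and for Itga4 S1pr2 (0.96), Lef1 (0.95) and Lbh (0.95). Itgb1 lay closest to Gpx4 (0.96), Atp8a1 (0.96) and Metap1 (0.93), and Itgb3 to Hdac4 (0.95), Tmem140 (0.92) and Arap3 (0.90). Among the low chains, the nearest was Mospd1 for Itga2 (0.99), A430005L14Rik for Itga6 (0.97) and Gm20324 for Itgae (0.98). Cd3g encodes a chain of the T cell receptor complex, Fcer1g the γ chain of Fc receptors, and Selplg the ligand of P-selectin.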

How the data were processed

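Expression was measured by RNA-seq in 8 libraries, 2 for each of 4 progenitor populations, made with Smart-seq2 and read at 50 bp, per the labels' protocols. Tools listed in the submitters' processing notes are Bowtie2 2.2.2 and CASAVA 1.8.4, with mm9 as the genome build. The sources used here do not give the counter, its strand setting or the annotation release. The authors deposited a whole-number read count per RefSeq transcript, and the deposited RPKM is that count per length and per library total. The remaining columns of the deposited tables are other values (length and position labels) used only to identify transcripts. Levels are RPKM. For each of 22878 symbols the transcript with the largest mean count was used; 4019 symbols have more than 1 transcript, and isoforms share reads.

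The test was edgeR 4.0.16's two-sided quasi-likelihood F test, with robust fitting (R 4.3.3, TMM scaling, filterByExpr at 10 counts, all 4 groups in 1 fit with 4 residual degrees of freedom, common biological coefficient of variation 0.526). P-values were Benjamini-Hochberg adjusted over 13619 genes, with a threshold of 0.05. The SE is the log2 fold change divided by the square root of F. Alternatives were DESeq2 1.42.0, DESeq2 size factors, limma 3.58.1 on log2(RPKM + 1) or + 0.1 with a minimum of 1 RPKM in 2 libraries, other filters, only the 4 libraries compared, the longest transcript, a replicate block and leaving out each library; leaving out the second library of both captured populations, PD-1+ and CCR6+, was chosen after seeing the data. The 10 chains, the marker lists and the naming rule (all 10 chains; up to 4 genes with the smallest p of each other list; the 3 most similar genes) were chosen with earlier results of these data known. Itga5, Itga7, Itgb6, Tln1 and Fermt3, and Filip1l, Rap1a, Cytip and Col1a1, are named outside that rule, after their values were seen. Counting limits for 0 reads cover counting error only. The genes most similar to Itga1 are not reported here.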

Additional observations from a re-analysis of the deposited data

How the results depend on the processing

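Of 536 recomputed fold changes of the 10 chains, 487 kept their direction and their side of the threshold, 18 lost a call, 5 gained one and 26 changed sign. In ChILP against CLP, genes called were 3 by edgeR, 0 with DESeq2 size factors, 63 without a filter, 15 at 5 RPKM or more in 2 libraries, 0 with the replicate block, 263 with DESeq2, 59 with only the 4 libraries compared, 55 and 46 with limma on log2(RPKM + 1) and + 0.1, and 43 without the second library of both captured populations, with chains called at 0 except for 1 by DESeq2. PD-1+ against CCR6+ called 131 genes by DESeq2, 2 with limma on log2(RPKM + 1) and 5 without those second libraries. PD-1+ against CLP called 995 by edgeR, 632 with the replicate block, 2288 by DESeq2, 208 with only the 4 libraries compared, 2147 and 1870 with limma, and 414 without those second libraries. CCR6+ against CLP called 1549 by edgeR, 2768 by DESeq2, and 3114 and 2797 with limma. Higher and lower calls were 609 and 386 by edgeR but 735 and 1412 with limma on log2(RPKM + 1) in PD-1+ against CLP, and 897 and 652 but 964 and 2150 in CCR6+ against CLP. The cause was not tested.

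Sign changes outside leave-one-out fits were Itga1 in PD-1+ against CLP (-0.12 with the replicate block, -0.27 and -0.81 with limma, -2.74 without those second libraries), Itgb1 in PD-1+ against CCR6+ (0.0331 and 0.0338 with limma) and in CCR6+ against CLP (-0.0046 and -0.0044 with limma), Itga6 in CCR6+ against CLP (-0.0294 with limma on log2(RPKM + 0.1)) and Itgb3 in CCR6+ against CLP (-0.97 without those second libraries).
Leaving out 1 library at a time, with a lone library taken to vary like the rest, gave 0 to 24 called genes and 0 chains in ChILP against CLP, 0 to 36 genes and 0 to 1 chains in PD-1+ against CCR6+, 8 to 815 genes and 0 to 5 chains in PD-1+ against CLP, and 83 to 770 genes and 1 to 2 chains in CCR6+ against CLP. The lowest counts against CLP came without CLP replicate 2. Log2 fold changes whose range crossed 0 were Itga6 in ChILP against CLP (-0.16 to 1.61) and in CCR6+ against CLP (-1.23 to 1.72), Itga1 (-2.70 to 1.22), Itga2 (-7.81 to 0.95) and Itgae (-2.30 to 2.83) in PD-1+ against CLP, Itgae (-6.43 to 0.56) and Itgb3 (-0.99 to 1.75) in CCR6+ against CLP, and in PD-1+ against CCR6+ Itga2 (-6.45 to 7.77), Itgae (-1.94 to 8.31), Itgb1 (-0.159 to 0.0797), Itgb2 (-0.33 to 0.14) and Itgb7 (-0.341 to 0.0882).

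Deviations of same-numbered libraries from their group means correlated between -0.11 and 0.09 over 13619 genes. The correlation was 0.094 between ChILP and CLP and 0.0796 between PD-1+ and CCR6+ cells. It was negative across enrichment routes. The mature myeloid sum fell from the first to the second library in ChILP and CLP and rose in PD-1+ and CCR6+ cells. The erythroid sum fell in ChILP, CLP and CCR6+ cells and rose in PD-1+ cells. Whether same-numbered libraries were paired within a route was not tested. The replicate block lowered the calls of ChILP against CLP to 0 and of PD-1+ against CLP to 632, and changed no call of the 10 chains. With 2 libraries a group, the low counts of Itga2, Itga6 and Itgae limit what could be detected.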
